A study of Mus musculus with 12 samples.

Results

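The effect of 4 weeks of YHY on the diabetic kidney was examined by comparing the kidney RNA of YHY-treated and untreated db/db mice. The 8 mice of the comparison were chosen by their sample labels, 4 YHY and 4 Model mice out of 12 in the series, and genes were kept if they had enough counts for a test, which left 17431 of 57490. YHY is a water extract of a traditional Chinese herbal formula, and the series asks how the formula acts on diabetic kidney disease. All 8 mice were male db/db mice of the strain BKS. Cg-Dock7m +/+ Leprdb/JNju, which lack a working leptin receptor, and they were 13 weeks old by their labels and were picked for a high random blood glucose. The YHY mice were given the extract at 6.24 g/mL once a day by gavage, in a volume of 50 µL for each 10 g of weight, and the Model mice received the same volume of purified water. The dose group of the study to which this strength belongs is not given in the sources used here. The 4 Ctrl mice, db/m males of the same age without the diabetes that were also given water, entered the fit and are quoted as a reference level. A single strength of the extract was sequenced, so that a dose response cannot be read from these mice, and kidney tissue was used without separation of its cells.

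The db/db mouse eats without restraint because leptin cannot signal, and it becomes obese and diabetic. Most RNA of the kidney comes from the proximal tubule, whose cells reabsorb the filtered glucose, amino acids and salts and burn mainly fatty acids to pay for it. Several programmes in these cells, among them the circadian clock and the response to fasting, follow feeding and hormones.

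Each library held between 24415658 and 29784346 counts on genes in Model and between 25149764 and 29698342 in YHY. Transcripts of the mitochondrial genome made up 41.2%, 58.9%, 55.3% and 53.4% of the counts of Model 1 to 4 and 53.8%, 64.6%, 54.6% and 54.2% of those of YHY 1 to 4. The groups overlapped in this share, with a mean of 52.2% ± 7.68 for the Model mice and 56.8% ± 5.21 for the YHY mice (SD, n = 4 per group, two-sided exact permutation P = 0.457, with 0.0286 the smallest P such groups allow). The 95% Wilson interval of YHY 2, the mouse with the highest share, ran from 64.58% to 64.62%. Such intervals hold counting error alone and not the spread between mice. They also treat PCR copies of a molecule as separate reads, which makes them narrower. Levels are given below as CPM, edgeR's counts brought to a common library size after TMM scaling. In the Ctrl mice the mitochondrial share was only 18.4% to 22.7%. Their TMM factors ran from 1.08 to 1.35, against 0.72 to 1.04 in the 8 db/db mice. The Ctrl levels quoted below thus come from libraries of a different make-up, and the part of this in them was not tested.

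The label kidney was checked against marker genes of its cell types. Proximal tubule markers were abundant in every mouse, with summed levels of 7233, 6124, 6732 and 5096 CPM in Model 1 to 4 and 2507, 4727, 3007 and 6530.4 CPM in YHY 1 to 4. Their most abundant member per length of transcript was Miox, which encodes an enzyme of inositol breakdown. Podocyte markers were present at summed levels of 262 to 476 CPM in the 8 mice, and markers of the thick ascending limb at 1259 to 3196 CPM. The YHY mice were not alike. Markers of the inner medulla and thin limb summed to 756, 777, 677 and 969 CPM in Model 1 to 4 and 1832, 559, 1288 and 594 CPM in YHY 1 to 4, and markers of the urothelium, the lining of the renal pelvis, summed to 149, 96.7, 110.4 and 129.9 CPM in Model 1 to 4 and 429, 145, 240.3 and 123 CPM in YHY 1 to 4. YHY 1 and YHY 3 were above every Model mouse in both of these sums and lowest in the proximal tubule sum. YHY 4 lay within the Model range for proximal tubule and urothelium and, like YHY 2, below it for the inner medulla sum. Aqp1, a water channel, is counted in both the proximal tubule list and the inner medulla and thin limb list. It is the most abundant member of the second list per length, so that this sum is not one of the medulla alone. Whether YHY 2 and YHY 4 stay below the Model range without Aqp1 was not tested. The part of these sums in the results below was not tested. In whole tissue, fewer cells of a type and less RNA per cell cannot be told apart.

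Between the groups, 982 genes were higher and 1329 lower in YHY at an adjusted P under 0.05 (edgeR's quasi-likelihood test, two-sided, Benjamini-Hochberg adjustment over the 17431 genes tested), or 5.63% and 7.62% of the genes and 13.3% together. The median log2 fold change over all genes tested was 0.02. The groups did not overlap in 1190 genes that were higher (6.83%) and 1617 that were lower (9.28%). At a fold change over 1.2 with an unadjusted P under 0.05, the limits stated in the study, 2429 genes (13.9%) were higher and 2559 (14.7%) lower. The study itself reported far fewer genes on each side for this comparison, and the reason for the difference was not tested. With an unadjusted P under 0.05 alone, 2430 of the 17431 were on the higher side and 2559 on the lower. DESeq2 called 1434 of the 17431 higher and 1689 lower. The DESeq2 and unadjusted counts given below for each list have these totals as their background, not the 5.63% and 7.62%. The number of genes past the adjusted limit depended on the mice and on the scaling. Without Model 3 it was 419 higher and 727 lower, without Model 1 the higher genes numbered 634, and without Model 4 they numbered 600. With libraries scaled by size alone, 491 were higher and 686 lower. In a fit with replicate number as a block, which pairs mice of the same number across groups, 793 were higher and 1127 lower. In a fit of only the 8 db/db mice, 693 were higher and 692 lower. The genes that were higher were long, with a median length of 6637 bases against 3788 bases over all genes tested and 3391 bases in the genes that were lower. Their median GC content was 47.6% against 51.3% in the genes that were lower. With a correction for GC content and length, chosen after seeing the data, 783 genes were higher and 1264 lower, and 1712 of the 2311 genes had the same call.

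**Figure D1:**
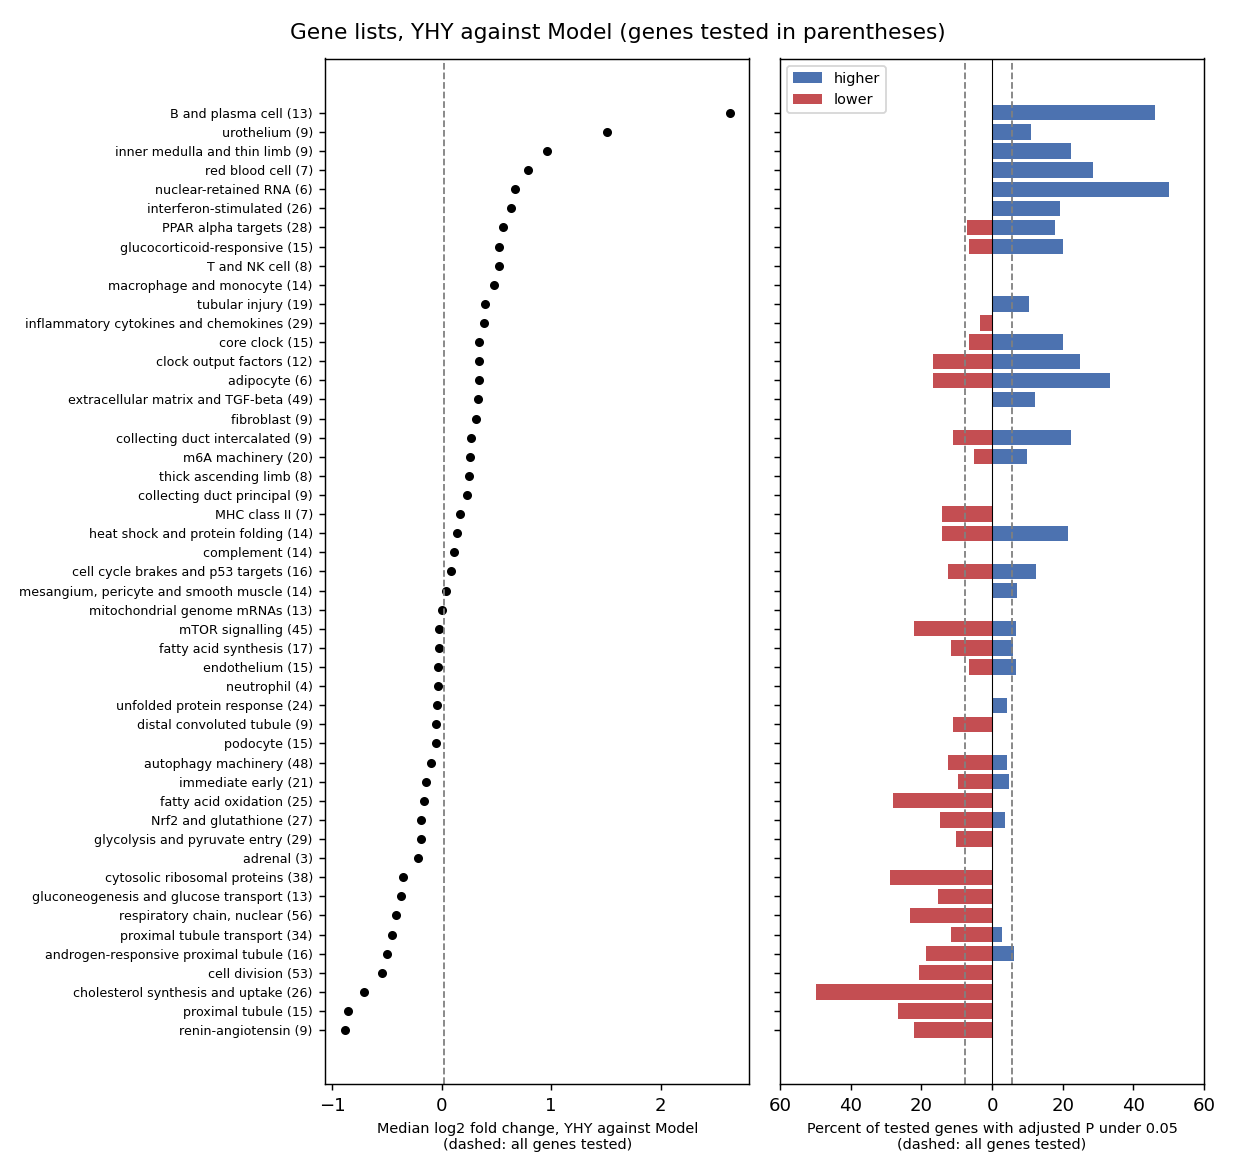
Median log2 fold change (left) and percent of tested genes with an adjusted P under 0.05 (right, lower in YHY to the left of 0 and higher to the right) for each gene list, YHY against Model, with the number of genes tested in parentheses. Dashed lines mark all genes tested (median 0.02, 7.62% lower and 5.63% higher), and in the cholesterol list 13 of 26 genes are past that limit on the lower side.

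The smallest P belonged to Gna12 (ENSMUSG00000000149, chromosome 5, 140744163 to 140816186 in GRCm39), the alpha subunit of a G protein that signals to the actin cytoskeleton, a gene picked out after its values were seen. Its level was 105, 102, 107 and 103 CPM in Model 1 to 4 and 29.7, 29.9, 27.2 and 29.2 CPM in YHY 1 to 4. The groups were far apart, with Model above the Ctrl range of 77.2 to 94.1 CPM and YHY below it. Gna12 fell by 1.85 on the log2 scale (log2 fold change -1.85, standard error 0.12, adjusted P = 1.40e-06), and the change lay between -1.86 and -1.82 when each mouse was left out in turn. Cckar, a receptor for the gut hormone cholecystokinin, had 20.7, 15.0, 16.1 and 17.0 CPM in Model 1 to 4 and 2.40, 3.54, 2.01 and 4.22 CPM in YHY 1 to 4. All YHY mice lay below all Model mice, which themselves lay below the Ctrl range of 50.6 to 71.9 CPM (log2 fold change -2.51, standard error 0.22, adjusted P = 3.40e-05).

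The genes with the largest changes were ranked after leaving out predicted genes, genes whose groups overlapped, genes averaging fewer than 50 counts in the 8 mice and genes that missed an adjusted P of 0.05. The largest rises were those of Ighg1, Pdk4, Cytl1, Nfil3, Nyap1, Zmat1, Lcn2, Angptl7, Dsp and Slc6a15, with log2 fold changes from 5.79 down to 1.98. Dsp, a protein of cell junctions, was highest in YHY 1, and its log2 fold change of 2.03 was 1.341 without that mouse. Lcn2, a secreted protein of injured tubules, had an adjusted P of 0.0381, and the call was lost without Model 1, Model 2, Model 3, Model 4, YHY 1 or YHY 3 (adjusted P up to 0.116) and with libraries scaled by size alone. The largest falls were those of Tm4sf5, Cdk1, Cox6a2, Cenpm, B3galnt1, Cckar, Ugt1a10, Mki67, Cela1 and Car3, with log2 fold changes from -2.78 to -2.29. Car3, a carbonic anhydrase, was at 28.1, 21.0, 27.1 and 22.5 CPM in Model 1 to 4 and 4.46, 7.35, 3.28 and 5.19 CPM in YHY 1 to 4. By the condition of the ranking no YHY mouse reached the Model range, which overlapped the Ctrl range of 15.4 to 26.8 CPM. A lack of overlap was likewise a condition for Cckar, Pdk4, Nfil3, Mki67, Cdk1 and the other genes ranked here, wherever it is given. Ugt1a10 shares exons with its neighbours in the Ugt1a cluster, so that its reads could be split between them by the counting.

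Some genes of the circadian clock differed between the groups. The clock is a loop in which Arntl and its partners switch on the Per and Cry genes, whose products switch them off, while Nr1d1 represses Arntl. Of 15 core clock genes tested, 3 rose and 1 fell (20.0% and 6.67% against 5.63% and 7.62% of all genes tested), with a median log2 fold change of 0.34 (0.19 without YHY 2 and 0.14 with the correction for GC content and length). Cry1, a repressor of the loop, stood at 4.09, 3.91, 2.24 and 2.27 CPM in Model 1 to 4 and 10.9, 8.35, 13.6 and 14.0 CPM in YHY 1 to 4. All YHY mice were above all Model mice (log2 fold change 1.90, standard error 0.33, adjusted P = 0.00239). Nr1d1 had 40.9, 29.8, 32.6 and 24.5 CPM in Model 1 to 4 and 14.9, 13.8, 10.4 and 6.20 CPM in YHY 1 to 4. In YHY, all mice were lower (log2 fold change -1.50, standard error 0.26, adjusted P = 0.00231), and because Nr1d1 overlaps Thra on the other strand and the strand setting of the counting is not given in the sources used here, reads of the pair may not be told apart. Arntl itself was at 2.19, 4.81, 1.92 and 3.72 CPM in Model 1 to 4 and 2.94, 5.14, 17.1 and 23.8 CPM in YHY 1 to 4. It was high in YHY 3 and YHY 4, while YHY 1 lay within the Model range and YHY 2 just above it. Its adjusted P was 0.0309, and the call was lost without Model 1, Model 3, Model 4, YHY 3 or YHY 4 (adjusted P up to 0.0998) and under the replicate block. Per1, the most abundant clock gene per length and another gene chosen after its values were seen, had an adjusted P of 0.533, with the highest levels in YHY 1 and YHY 2.

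Of 12 output factors of the clock, 3 rose and 2 fell (25.0% and 16.7% against 5.63% and 7.62% of all genes tested). Their median log2 fold change was 0.34 (0.22 without YHY 2). Nfil3, a repressor that competes for the sites of Dbp and Hlf, had 2.51, 2.43, 1.37 and 2.91 CPM in Model 1 to 4 and 4.999, 12.0, 7.93 and 19.7 CPM in YHY 1 to 4. Every YHY mouse was above every Model mouse (log2 fold change 2.27, standard error 0.41, adjusted P = 0.00339), with YHY 4 highest. Hlf, which activates those sites, was at 64.7, 60.7, 62.4 and 51.0 CPM in Model 1 to 4 and 29.3, 38.8, 30.9 and 44.5 CPM in YHY 1 to 4. The YHY mice were all below the Model mice (log2 fold change -0.73, standard error 0.18, adjusted P = 0.017), a call lost without Model 3 (adjusted P = 0.0523). Dbp, an activator that is named here after its values were seen, was at 44.8, 33.6, 48.7 and 39.7 CPM in Model 1 to 4 and 16.0, 16.2, 3.91 and 2.25 CPM in YHY 1 to 4. The groups did not overlap and YHY 3 and YHY 4 were lowest, but the adjusted P of 0.0629 missed the limit. Nampt, the rate-limiting enzyme of NAD salvage, rose (log2 fold change 0.69, standard error 0.15, adjusted P = 0.00783) and Klf9, a zinc finger factor, fell (log2 fold change -0.70, standard error 0.19, adjusted P = 0.0215). The call of Nampt was lost with libraries scaled by size alone, and that of Klf9 was lost without Model 3, YHY 1 or YHY 3 (adjusted P up to 0.0622). The hour at which the kidneys were taken is not given in the sources used here. In the clock output factors list 1 was higher with libraries scaled by size alone, and 0 were lower without Model 3 and 1 without YHY 1 or YHY 3.

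**Figure D2:**
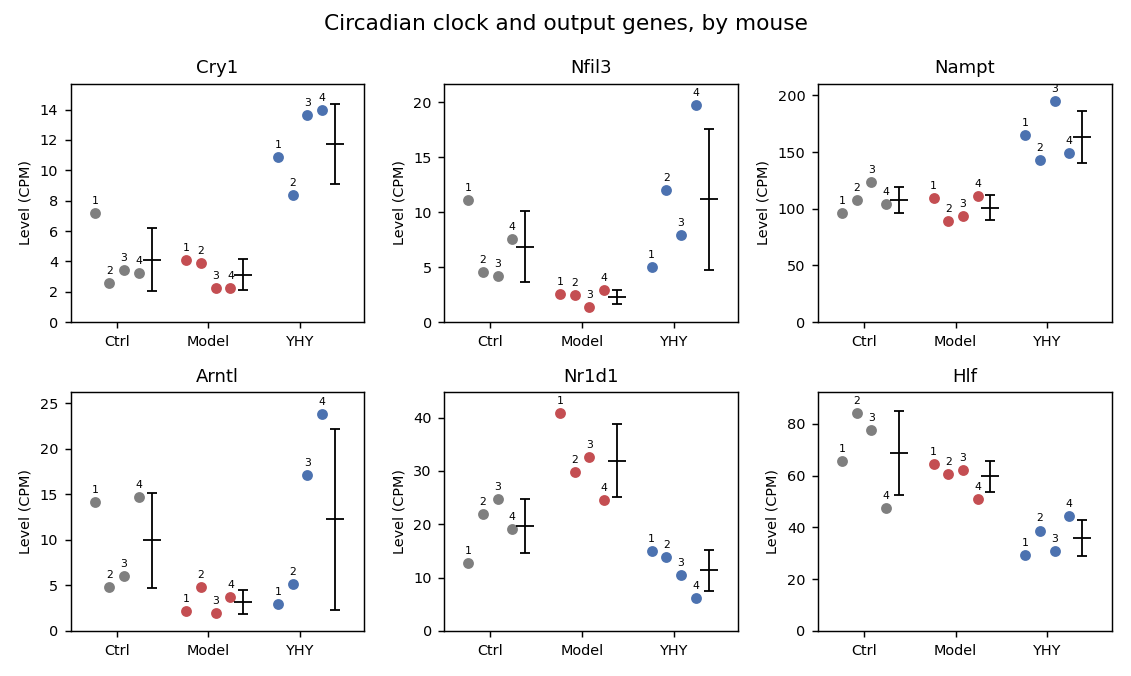
Level in CPM (vertical axes) of 6 clock and output genes in each mouse, with replicate numbers beside the points and the mean with SD (n = 4) at the right of each group. Grey points are the Ctrl mice. Cry1, Nfil3 and Nampt are higher and Nr1d1 and Hlf lower in all YHY mice than in all Model mice, and Arntl is high in YHY 3 and YHY 4.

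The promoter of Cry1 is shown because Cry1 was among the clock genes that rose and carries the E-box, the letters CACGTG bound by Arntl and its partner. The sequence is the 250 bases before the start of the gene from RefSeq, build GRCm38.p6, chr10:85185055-85185304, read 5′ to 3′ on the minus strand, with the E-box in capitals.
Cry1: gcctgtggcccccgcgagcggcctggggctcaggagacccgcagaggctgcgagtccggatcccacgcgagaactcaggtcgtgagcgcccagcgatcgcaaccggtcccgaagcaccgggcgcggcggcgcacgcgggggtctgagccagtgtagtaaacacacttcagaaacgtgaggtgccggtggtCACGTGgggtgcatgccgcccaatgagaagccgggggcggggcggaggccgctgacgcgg
The motif begins 60 bases before the start. It reads the same on both strands and was found in 6.02% of 32851 mouse promoters of this length. Of 4 core clock genes that passed the test, 3 had an entry in the table, with 4 promoters of which 1 held the motif, against 3 of 12 promoters of the core clock genes that did not pass. A match describes the letters and does not show a bound site.

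Several genes of cholesterol synthesis fell. Cells make cholesterol from acetyl-CoA through the mevalonate pathway, and when cholesterol is scarce Scap escorts Srebf2 to the Golgi, from which the cut Srebf2 moves to the nucleus and switches on the genes of synthesis and uptake. Of 26 genes tested, 13 fell (50.0% against 7.62% of all genes tested) and 0 rose, with a median log2 fold change of -0.71. These were 2 of 4 regulators, 9 of 19 enzymes and 2 of 3 uptake genes. DESeq2 called 1 higher and 16 lower, and an unadjusted P under 0.05 was met by 1 on the higher side and 19 on the lower, and with libraries scaled by size alone 8 were lower. Among the regulators, Srebf2, which like Scap was picked out after its values were seen, was at 64.3, 46.8, 53.5 and 51.8 CPM in Model 1 to 4 and 36.6, 26.7, 30.7 and 38.6 CPM in YHY 1 to 4. Each of the YHY mice was below all Model mice (log2 fold change -0.71, standard error 0.14, adjusted P = 0.0061), a call lost with libraries scaled by size alone, and the mice of Scap did not overlap either (log2 fold change -0.77, standard error 0.17, adjusted P = 0.00814). Of the enzymes, Hmgcs1, which makes the precursor of mevalonate and was the most abundant gene of the list per length, had 159, 103, 128 and 104 CPM in Model 1 to 4 and 65.7, 67.1, 66.9 and 69.5 CPM in YHY 1 to 4. The YHY mice lay close together below the lowest Model mouse (log2 fold change -0.88, standard error 0.16, adjusted P = 0.00341). Cyp51, which removes a methyl group from lanosterol, was at 23.98, 21.8, 29.9 and 31.6 CPM in Model 1 to 4 and 7.25, 11.1, 9.83 and 8.06 CPM in YHY 1 to 4. The groups were widely separated (log2 fold change -1.57, standard error 0.17, adjusted P = 0.000263), and both were far below the Ctrl range of 202 to 249 CPM. Sqle, which oxidises squalene, stood at 29.5, 22.0, 30.6 and 26.5 CPM in Model 1 to 4 and 10.1, 9.73, 8.26 and 11.9 CPM in YHY 1 to 4. It too was lower in each YHY mouse than in any Model mouse (log2 fold change -1.44, standard error 0.17, adjusted P = 0.000322).

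The mevalonate enzymes Mvk and Mvd fell as well, Mvk by 1.56 on the log2 scale (standard error 0.24, adjusted P = 0.00128) and Mvd by 1.02 on the log2 scale (standard error 0.14, adjusted P = 0.000513). Of the genes of uptake and transport, Stard4, a carrier of cholesterol within the cell, had 40.3, 22.3, 29.5 and 28.1 CPM in Model 1 to 4 and 10.4, 12.3, 10.2 and 10.7 CPM in YHY 1 to 4. Each of the YHY mice was below all Model mice, and Stard4 fell (log2 fold change -1.47, standard error 0.17, adjusted P = 0.000309). Abca1, which exports cholesterol from the cell and was picked out after its values were seen, moved the other way, at 8.14, 15.7, 9.91 and 10.9 CPM in Model 1 to 4 and 36.9, 41.3, 29.9 and 35.3 CPM in YHY 1 to 4. All YHY mice were above all Model mice and above the Ctrl range of 10.3 to 16.8 CPM (log2 fold change 1.68, standard error 0.21, adjusted P = 0.000322). Of 17 genes of fatty acid synthesis, 1 rose and 2 fell (5.88% and 11.8% against 5.63% and 7.62% of all genes tested). Me1, the malic enzyme that supplies NADPH, fell (log2 fold change -1.56, standard error 0.19, adjusted P = 0.000322), and Mlxipl, a transcription factor that responds to glucose, rose (log2 fold change 1.28, standard error 0.28, adjusted P = 0.00785). In the fatty acid synthesis list 1 was lower without Model 1, Model 3 or YHY 3, or with libraries scaled by size alone and 4 without YHY 4, or by DESeq2.

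**Figure D3:**
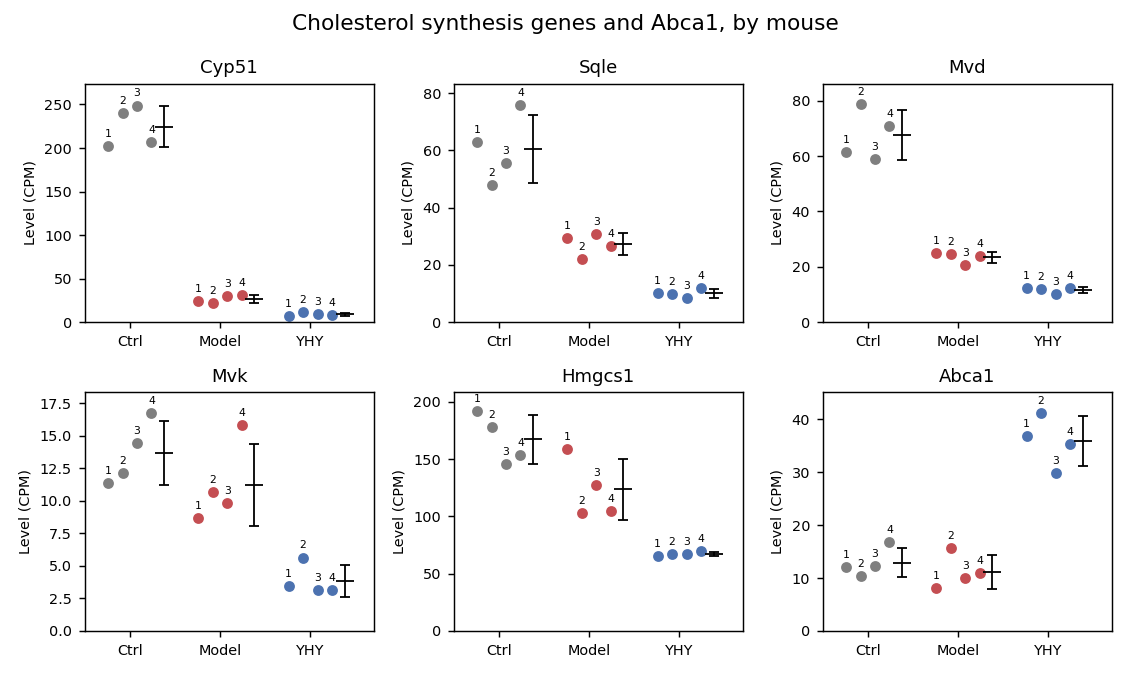
Level in CPM (vertical axes) of 5 enzymes of cholesterol synthesis and of the exporter Abca1 in each mouse, with replicate numbers, grey Ctrl points and the mean with SD (n = 4). In each enzyme the 4 YHY mice lie below the 4 Model mice, and in Abca1 they lie above them.

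Promoters of 3 of the enzymes are shown because their genes fell together. The CCAAT box, the letters CCAAT read on either strand (ATTGG on the other), is in capitals, and the sequences are the 250 bases before the start from RefSeq, build GRCm38.p6, 5′ to 3′ on the strand of the gene: Hmgcs1 at chr13:119690101-119690350 on the plus strand, Mvd at chr8:122443423-122443672 and Cyp51 at chr5:4104698-4104947, both on the minus strand.
Hmgcs1: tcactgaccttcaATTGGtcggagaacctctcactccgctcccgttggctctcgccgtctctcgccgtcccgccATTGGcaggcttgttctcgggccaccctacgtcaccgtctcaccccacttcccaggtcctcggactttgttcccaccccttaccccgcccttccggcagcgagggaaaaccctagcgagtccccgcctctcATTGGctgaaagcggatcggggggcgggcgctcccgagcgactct
Mvd: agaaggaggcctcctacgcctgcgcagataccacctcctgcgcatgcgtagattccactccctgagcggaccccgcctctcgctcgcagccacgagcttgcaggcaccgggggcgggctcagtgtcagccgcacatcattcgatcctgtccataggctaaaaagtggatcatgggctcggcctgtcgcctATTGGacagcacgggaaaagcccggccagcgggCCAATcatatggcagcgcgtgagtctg
Cyp51: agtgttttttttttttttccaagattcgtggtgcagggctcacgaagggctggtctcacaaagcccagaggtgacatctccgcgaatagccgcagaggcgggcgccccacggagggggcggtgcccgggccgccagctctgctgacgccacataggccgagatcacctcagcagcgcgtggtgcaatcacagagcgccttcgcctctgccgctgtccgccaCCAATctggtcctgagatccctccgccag
The window held 3 matches in Hmgcs1, 2 in Mvd and 1 in Cyp51. Of the 13 genes that fell, 9 had an entry, and 8 of their 10 promoters held the box (80%). It was in 9 of 14 promoters (64.3%) of the list's genes that did not pass and in 33.8% of all 32851 promoters. The box was thus common in the list whether or not a gene fell. Matches describe letters and do not show a bound site, and a part of the box in the fall was not tested.

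Genes that respond to fasting through PPAR alpha, a receptor for fatty acids, rose in part. Of 28 tested, 5 rose and 2 fell (17.9% and 7.14% against 5.63% and 7.62% of all genes tested), with a median log2 fold change of 0.56 (0.18 without YHY 4). Pdk4 (ENSMUSG00000019577, chromosome 6, 5483351 to 5496309 in GRCm39), which turns off pyruvate dehydrogenase and so spares glucose, was at 9.08, 11.2, 4.11 and 9.32 CPM in Model 1 to 4 and 28.0, 29.2, 76.2 and 68.1 CPM in YHY 1 to 4. Even the lowest YHY mouse was above the Ctrl range of 8.43 to 19.9 CPM, and Pdk4 rose (log2 fold change 2.58, standard error 0.38, adjusted P = 0.000884). Plin5, a protein of lipid droplets, had 2.51, 1.71, 2.88 and 2.61 CPM in Model 1 to 4 and 5.19, 5.53, 4.95 and 8.80 CPM in YHY 1 to 4. There was no overlap between the groups (log2 fold change 1.33, standard error 0.34, adjusted P = 0.0186), a call lost without Model 2 (adjusted P = 0.0537). Plin2, Ucp2 and Angptl4 also passed, with adjusted P values of 0.0443, 0.0375 and 0.0496. The call of Plin2 was lost without Model 1, Model 2, Model 3, Model 4, YHY 2 or YHY 4 (adjusted P up to 0.123) and with libraries scaled by size alone and under the replicate block. That of Ucp2 was lost without Model 2, Model 3, Model 4, YHY 1 or YHY 3 (adjusted P up to 0.126) and with libraries scaled by size alone and with the correction for GC content and length, and that of Angptl4 was lost without Model 1, Model 2, Model 3, Model 4, YHY 2, YHY 3 or YHY 4 (adjusted P up to 0.114). Without YHY 4 the log2 fold change of Plin2 was 0.47 in place of 0.74, and without YHY 1 that of Ucp2 was 0.48 in place of 0.78. Of the regulators, Rxra, the partner receptor of PPAR alpha, fell (log2 fold change -0.62, standard error 0.17, adjusted P = 0.0239), a call lost without Model 1, Model 3, YHY 1 or YHY 3 (adjusted P up to 0.0849). In the PPAR alpha targets list 3 were higher without Model 1, YHY 2 or YHY 4, or with libraries scaled by size alone, 1 without Model 2, 2 without Model 3 or Model 4 and 8 without YHY 1, and 0 were lower without Model 1, Model 3, YHY 1 or YHY 3 and 1 without Model 2, or with mitochondrial genes removed or under the replicate block.

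Of 25 genes of fatty acid oxidation and ketone metabolism, 7 fell (28.0% against 7.62% of all genes tested) and 0 rose. The median log2 fold change was -0.16 (-0.054 without Model 1, -0.038 without YHY 1 and -0.40 without YHY 4). Those that fell were 0 of 5 genes of the carnitine shuttle, 3 of 15 enzymes of beta-oxidation and 4 of 5 genes of ketone production and use. Before adjustment 0 were higher and 9 lower at a P under 0.05, and the DESeq2 calls were 0 higher and 8 lower, and with libraries scaled by size alone 2 were lower. Hadh, an enzyme of beta-oxidation, was at 178, 131, 163 and 134 CPM in Model 1 to 4 and 60.8, 71.1, 70.4 and 103 CPM in YHY 1 to 4. All YHY mice were below the lowest Model mouse (log2 fold change -0.99, standard error 0.19, adjusted P = 0.00419). Acads, which starts the oxidation of short chains, was at 52.9, 43.7, 53.8 and 45.8 CPM in Model 1 to 4 and 22.9, 24.1, 29.1 and 32.97 CPM in YHY 1 to 4. The YHY mice were again all lower (log2 fold change -0.85, standard error 0.15, adjusted P = 0.00274), and Oxct1, which activates ketone bodies, fell by 0.75 on the log2 scale (standard error 0.16, adjusted P = 0.00741), a call lost with libraries scaled by size alone. In the fatty acid oxidation list 4 were lower without Model 3.

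Among 13 genes of glucose production and transport, 2 fell (15.4% against 7.62% over all genes tested) and 0 rose, with a median of -0.37 (-0.23 without Model 1, -0.22 without YHY 1, -0.69 without YHY 4 and -0.24 with the correction for GC content and length). By DESeq2 0 were higher and 5 lower, and before adjustment edgeR had 0 higher and 5 lower at a P under 0.05. Fbp1, an enzyme of gluconeogenesis, had 259, 210.5, 217 and 182 CPM in Model 1 to 4 and 61.8, 131, 79.8 and 134 CPM in YHY 1 to 4. The YHY mice were lower without overlap (log2 fold change -1.09, standard error 0.22, adjusted P = 0.00593). Slc2a2, the glucose transporter of the basal side of the proximal tubule, was at 178, 111, 156 and 89.7 CPM in Model 1 to 4 and 14.7, 29.0, 28.6 and 102 CPM in YHY 1 to 4. YHY 4 lay within the Model range, and the call (adjusted P = 0.0256) was lost without Model 1, Model 3, YHY 2 or YHY 3 (adjusted P up to 0.071). Its log2 fold change of -1.62 was -2.48 without YHY 4. In the gluconeogenesis and glucose transport list 1 was lower without Model 1, Model 3 or YHY 3, 5 without YHY 4 and 4 with libraries scaled by size alone. Of 29 genes of glycolysis and pyruvate entry, 3 fell (10.3%) and 0 rose, with a median of -0.19 (-0.053 without Model 1). Pdk4, which rose, is counted with the PPAR alpha genes above and not in this list. At an unadjusted P under 0.05 1 were higher and 6 lower, and DESeq2 called 0 higher and 4 lower. Ldha, which makes lactate, fell from between 209 and 255 CPM in Model to between 100.2 and 137 CPM in YHY (log2 fold change -0.92, standard error 0.15, adjusted P = 0.0017), and Pdp2, which turns pyruvate dehydrogenase on, fell by 1.14 on the log2 scale (standard error 0.29, adjusted P = 0.0194), a call lost without Model 3 (adjusted P = 0.0658). In the glycolysis and pyruvate entry list 1 was lower without Model 3.

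Some nuclear genes of the respiratory chain fell. Of 56 tested, 13 fell (23.2% against 7.62% of all genes tested) and 0 rose, with a median log2 fold change of -0.42 (-0.25 without Model 1). Those that fell were 6 of 23 genes of complex I and 7 of 33 of the other complexes. DESeq2 called 0 higher and 20 lower, and an unadjusted P under 0.05 was met by 0 on the higher side and 28 on the lower. The count was 1 with libraries scaled by size alone, 7 under the replicate block and 8 with the correction for GC content and length. It was 1 without Model 3, 2 without Model 1, 3 without YHY 2, 4 without YHY 1, 8 without Model 2 and 20 without YHY 4. Ndufb9, a subunit of complex I, was at 216, 167, 188 and 173 CPM in Model 1 to 4 and 95.7, 88.4, 104 and 151 CPM in YHY 1 to 4. The groups did not overlap (log2 fold change -0.76, standard error 0.19, adjusted P = 0.0165). Sdhd, a subunit of complex II, fell by 0.63 on the log2 scale (standard error 0.16, adjusted P = 0.0163), a call lost without Model 3 (adjusted P = 0.0501) and with libraries scaled by size alone. Of the 13 mRNAs of the mitochondrial genome, 0 passed the edgeR test in either direction. Before adjustment 2 were higher and 1 lower at a P under 0.05, and the DESeq2 calls were 2 higher and 0 lower. The mitochondrial chaperones Hspd1 and Hspe1 fell (log2 fold change -1.01, standard error 0.19, adjusted P = 0.00405 and log2 fold change -1.04, standard error 0.22, adjusted P = 0.00793). Of the 14 genes of the heat shock list 3 rose and 2 fell (21.4% and 14.3% against 5.63% and 7.62% of all genes tested). Those that rose were Hspb1, Hsph1 and Chordc1. The call of Hsph1 held in 4 of 8 fits with 1 mouse left out (adjusted P up to 0.112). In the mitochondrial mRNA list 1 was higher without Model 2 or YHY 3, or with libraries scaled by size alone or under the replicate block. In the heat shock and protein folding list 1 was higher without Model 2, Model 3 or YHY 1, or with libraries scaled by size alone or with the correction for GC content and length.

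Some genes of cell division fell. Of 53 tested, 11 fell (20.8% against 7.62% of all genes tested) and 0 rose, with a median log2 fold change of -0.54. By role those that fell were 2 of 10 genes of the G1/S transition, 2 of 19 of DNA replication and 7 of 24 of mitosis. By DESeq2 0 were higher and 14 lower, and before adjustment edgeR had 0 higher and 19 lower at a P under 0.05, and without Model 4 edgeR called 6 lower and without YHY 3 it called 7. The summed level of the list was 278, 245, 247 and 256 CPM in Model 1 to 4 and 178, 187, 160.0 and 154 CPM in YHY 1 to 4. Each of the YHY mice was below all Model mice, and YHY 4 lay within the Ctrl range of 149.5 to 159 CPM. Mki67, a protein of dividing cells, was at 22.1, 24.2, 16.3 and 19.4 CPM in Model 1 to 4 and 5.30, 4.87, 2.87 and 3.06 CPM in YHY 1 to 4. The groups were far apart (log2 fold change -2.35, standard error 0.26, adjusted P = 0.000263), and YHY 3 and YHY 4 lay within the Ctrl range of 1.82 to 3.68 CPM. Cdk1, the kinase that drives entry into mitosis, had 4.38, 4.86, 5.21 and 4.66 CPM in Model 1 to 4 and 1.22, 0.221, 0.670 and 0.659 CPM in YHY 1 to 4. It fell by 2.75 on the log2 scale (standard error 0.45, adjusted P = 0.00171), and Top2a, which untangles DNA before mitosis and was chosen after its values were seen, was at 8.18, 8.24, 4.52 and 10.4 CPM in Model 1 to 4 and 2.71, 4.37, 1.23 and 2.17 CPM in YHY 1 to 4. Its groups did not overlap (log2 fold change -1.59, standard error 0.41, adjusted P = 0.0184), and the call was lost without Model 4 (adjusted P = 0.0541). Ube2c and Cdc20, which activate the destruction of cyclins, and Tpx2 and Cenpe, which serve the spindle, had log2 fold changes from -1.93 to -1.69 and passed the test.

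Among 16 cell cycle brakes and p53 targets, 2 rose and 2 fell (12.5% and 12.5% against 5.63% and 7.62% of all genes tested). Trp53 itself was at 21.2, 15.0, 12.2 and 10.8 CPM in Model 1 to 4 and 25.7, 24.2, 23.3 and 23.1 CPM in YHY 1 to 4. In YHY, all mice were higher (log2 fold change 0.70, standard error 0.18, adjusted P = 0.0205), and the call was lost without Model 3 or Model 4 (adjusted P up to 0.0784) and with libraries scaled by size alone. Its targets did not move together, as Sesn2 rose (log2 fold change 0.73, standard error 0.21, adjusted P = 0.0353) and Ccng1 and Zmat3 fell (log2 fold change -0.76, standard error 0.13, adjusted P = 0.00203 and log2 fold change -0.76, standard error 0.17, adjusted P = 0.00879). The call of Sesn2 was lost without Model 1, Model 3, Model 4, YHY 2 or YHY 4 (adjusted P up to 0.113), and its log2 fold change was 0.48 without YHY 2. That of Zmat3 was lost with libraries scaled by size alone. Cdkn1a, which blocks the cell cycle, had 14.3, 14.0, 16.5 and 27.6 CPM in Model 1 to 4 and 27.6, 26.3, 41.2 and 48.1 CPM in YHY 1 to 4. YHY 2 lay below Model 4, and the adjusted P of 0.0902 missed the limit, which it passed with DESeq2 and under the replicate block. In the cell cycle brakes and p53 targets list 1 was higher without Model 1 or YHY 2, or with libraries scaled by size alone and 0 without Model 3 or Model 4, and 1 was lower with libraries scaled by size alone.

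The promoters of Cdk1 and Top2a are shown because both genes belong to the group that fell, again with the CCAAT box in capitals on either strand, from RefSeq, build GRCm38.p6, chr10:69352913-69353162 and chr11:99024190-99024439, both on the minus strand.
Cdk1: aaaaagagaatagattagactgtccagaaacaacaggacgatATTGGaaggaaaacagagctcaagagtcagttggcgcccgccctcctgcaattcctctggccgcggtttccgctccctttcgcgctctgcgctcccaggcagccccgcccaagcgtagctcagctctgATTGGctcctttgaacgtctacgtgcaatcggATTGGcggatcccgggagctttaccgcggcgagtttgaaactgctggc
Top2a: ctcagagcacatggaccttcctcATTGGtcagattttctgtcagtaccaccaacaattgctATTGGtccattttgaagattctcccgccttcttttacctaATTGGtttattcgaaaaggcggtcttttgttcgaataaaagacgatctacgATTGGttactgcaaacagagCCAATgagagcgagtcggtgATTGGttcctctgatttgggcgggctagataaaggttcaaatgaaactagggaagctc
There were 3 matches in Cdk1 and 6 in Top2a. The box was in 7 of 10 promoters of the genes that fell and in 29 of 41 promoters of the cell division genes that did not pass, so that it did not mark the genes that fell among the list.

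**Figure D4:**
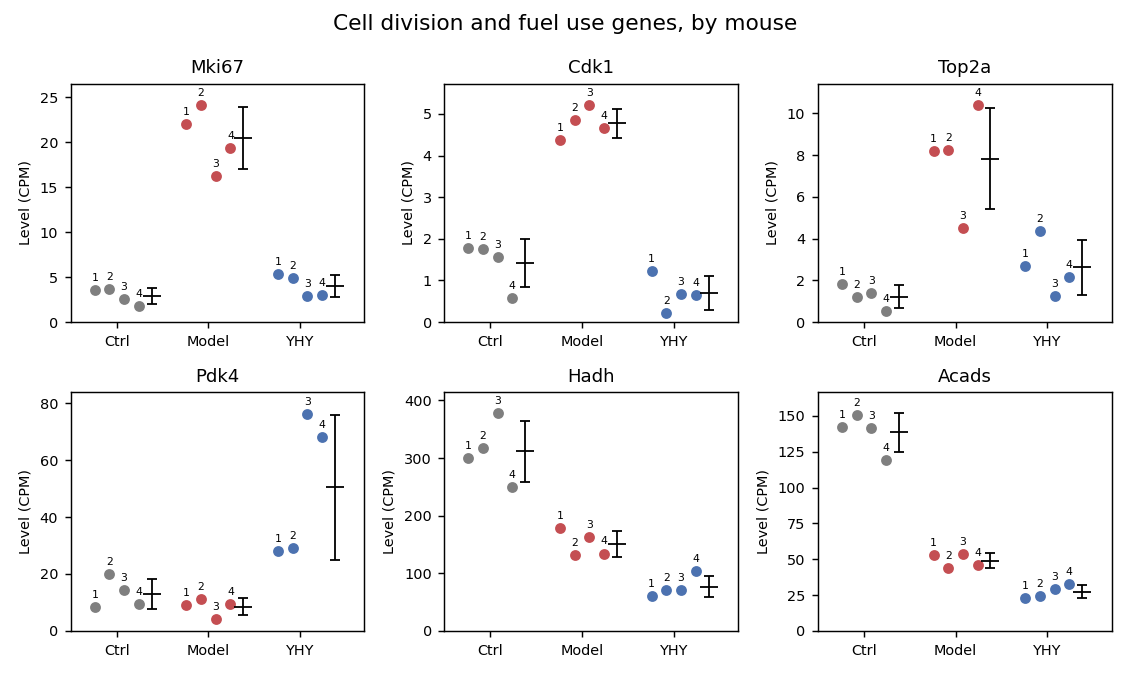
Level in CPM (vertical axes) of 3 cell division genes (Mki67, Cdk1, Top2a), of Pdk4 and of 2 enzymes of fatty acid oxidation (Hadh, Acads) in each mouse, with replicate numbers, the Ctrl mice in grey and the mean with SD (n = 4). The YHY mice lie below the Model mice in all but Pdk4, where they lie above.

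Among markers of the proximal tubule, some fell. Of 15 tested, 4 fell (26.7% against 7.62% of all genes tested) and 0 rose, with a median log2 fold change of -0.85. At an unadjusted P under 0.05 0 were higher and 9 lower, and DESeq2 called 0 higher and 8 lower, and without YHY 4 edgeR called 10 lower. Hnf4a, the transcription factor that sets the identity of these cells, was at 426, 387, 526 and 461 CPM in Model 1 to 4 and 175, 248, 171 and 343 CPM in YHY 1 to 4. The highest YHY mouse, YHY 4, was below the lowest Model mouse (log2 fold change -0.94, standard error 0.21, adjusted P = 0.009). Keg1 fell too, as did Slc7a13, a transporter of acidic amino acids in the straight part (log2 fold change -0.86, standard error 0.21, adjusted P = 0.0152 and log2 fold change -1.11, standard error 0.28, adjusted P = 0.0162). Gatm, an enzyme of creatine synthesis, was at 194, 125, 128 and 69.2 CPM in Model 1 to 4 and 7.48, 31.2, 17.9 and 79.8 CPM in YHY 1 to 4. YHY 4 was above Model 4, and the call (log2 fold change -1.92, adjusted P = 0.0229) was lost without Model 1, Model 3, YHY 2 or YHY 3 (adjusted P up to 0.0629). Among 34 transport genes of the proximal tubule, 1 rose and 4 fell (2.94% and 11.8% against 5.63% and 7.62% of all genes tested). In the proximal tubule transport list 0 were higher without Model 1, Model 2, Model 3 or YHY 2, or with libraries scaled by size alone or under the replicate block, 2 without Model 4, or with mitochondrial genes removed and 3 by DESeq2, and 2 were lower without Model 1, Model 3 or YHY 1, or under the replicate block, 14 without YHY 4 and 7 by DESeq2. Among 16 genes of the tubule that are higher in males, 1 rose and 3 fell (6.25% and 18.8%), and Akr1c21, a steroid dehydrogenase, fell by 1.65 on the log2 scale (standard error 0.36, adjusted P = 0.00868). In the androgen-responsive proximal tubule list 0 were higher without Model 1, Model 2, Model 3, YHY 1, YHY 2 or YHY 3, or with libraries scaled by size alone, under the replicate block or with the correction for GC content and length. Of 9 genes of the renin-angiotensin system, 2 fell (22.2% against 7.62% of all genes tested) and 0 rose. Those that fell were peptidases of the brush border, Anpep (log2 fold change -0.91, standard error 0.19, adjusted P = 0.00635) and Enpep (log2 fold change -1.18, standard error 0.27, adjusted P = 0.0105). DESeq2 called 1 higher and 3 lower, and an unadjusted P under 0.05 was met by 1 on the higher side and 4 on the lower. In the renin-angiotensin list 1 was higher with upper-quartile scaling, with mitochondrial genes removed, under the replicate block or with the correction for GC content and length, and 4 were lower without YHY 4. The summed marker level moved with YHY 1 and YHY 3, as given above, and its part in these results was not tested.

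Further along the tubule few markers passed. Of 8 markers of the thick ascending limb and 9 of the principal cells of the collecting duct, 0 passed the edgeR test. For the thick ascending limb, at an unadjusted P under 0.05 2 were higher and 0 lower, and DESeq2 called 2 higher and 0 lower. For the principal cells, at an unadjusted P under 0.05 3 were higher and 0 lower, and DESeq2 called 2 higher and 0 lower. Of 9 markers of the distal convoluted tubule 1 fell (11.1% against 7.62% of all genes tested). It was Pvalb, a calcium buffer, at 146, 60.2, 98.5 and 70.8 CPM in Model 1 to 4 and 22.1, 40.4, 13.8 and 48.7 CPM in YHY 1 to 4. All YHY mice were lower (log2 fold change -1.59, standard error 0.36, adjusted P = 0.0102). In the distal convoluted tubule list 3 were lower without YHY 2 and 2 by DESeq2, with libraries scaled by size alone, under the replicate block or with the correction for GC content and length. Of 9 markers of the intercalated cells 2 rose and 1 fell (22.2% and 11.1% against 5.63% and 7.62% of all genes tested). Slc4a9, a bicarbonate transporter, was at 60.5, 72.7, 74.7 and 56.5 CPM in Model 1 to 4 and 128, 226, 120.3 and 136 CPM in YHY 1 to 4. It rose in every YHY mouse above the Model range (log2 fold change 1.21, standard error 0.26, adjusted P = 0.00758), and Atp6v1g3, a subunit of the proton pump, fell (log2 fold change -1.13, standard error 0.23, adjusted P = 0.00568). Slc12a1 and Aqp2, the most abundant markers per length of the thick ascending limb and the principal cells, had adjusted P values of 0.314 and 0.757. In the collecting duct intercalated list 1 was higher without Model 1, Model 2, Model 3 or YHY 2. In the thick ascending limb list 1 was higher without Model 1, YHY 2 or YHY 4, or under the replicate block. In the collecting duct principal list 1 was higher without Model 1 or YHY 2, or with the correction for GC content and length and 3 without YHY 4.

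In the glomerulus, 0 of 15 podocyte markers passed the edgeR test. Before adjustment 0 were higher and 5 lower at a P under 0.05, and the DESeq2 calls were 0 higher and 2 lower. Nphs1, Synpo and Wt1 overlapped between the groups, with adjusted P values of 0.565, 0.809 and 0.312. Cdkn1c, the most abundant podocyte marker per length, and Myl9, that of mesangium and smooth muscle, had adjusted P values of 0.159 and 0.192, and without YHY 4 that of Cdkn1c was 0.0279. Of 15 endothelial markers 1 rose and 1 fell (6.67% and 6.67% against 5.63% and 7.62% of all genes tested), Sox17 (log2 fold change 0.70, standard error 0.16, adjusted P = 0.0115) and Eng (log2 fold change -0.50, standard error 0.13, adjusted P = 0.0205), the first lost with libraries scaled by size alone and the second lost without Model 3 (adjusted P = 0.073) and with libraries scaled by size alone. Of 14 markers of mesangium, pericytes and smooth muscle 1 rose (7.14%), Myh11, with an adjusted P of 0.0439 and a call lost without Model 1, Model 2, Model 3, Model 4, YHY 1, YHY 2 or YHY 3 (adjusted P up to 0.136) and with libraries scaled by size alone and with the correction for GC content and length. Of 9 fibroblast markers 0 passed the edgeR test. By DESeq2 0 were higher and 0 lower, and before adjustment edgeR had 2 higher and 0 lower at a P under 0.05. In the podocyte list 2 were lower without Model 4, 1 without YHY 2, or with the correction for GC content and length and 3 without YHY 4. In the endothelium list 0 were higher with libraries scaled by size alone, and 0 were lower without Model 3, or with libraries scaled by size alone and 2 without Model 4 or YHY 4, or by DESeq2 or with the correction for GC content and length. In the mesangium and smooth muscle list 0 were higher without Model 1, Model 2, Model 3, Model 4, YHY 1, YHY 2 or YHY 3, or with libraries scaled by size alone or with the correction for GC content and length, and 1 was lower without Model 1, YHY 2 or YHY 4, or by DESeq2, under the replicate block or with the correction for GC content and length. In the fibroblast list 2 were higher without YHY 4.

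Several basement membrane genes rose. Of 49 genes of the extracellular matrix and TGF-beta pathway, 6 rose (12.2% against 5.63% over all genes tested) and 0 fell, with a median of 0.33 (0.17 without YHY 1 and 0.55 without YHY 4), and 5 of the 6 were among 19 collagens and laminins, while 0 of 14 genes of the TGF-beta pathway passed. At an unadjusted P under 0.05 12 were higher and 1 lower, and DESeq2 called 9 higher and 1 lower. Col4a3, Col4a4 and Col4a5 form the collagen network of the glomerular filter. Col4a4 rose (log2 fold change 0.47, standard error 0.14, adjusted P = 0.0361), but its call held in only 2 of 8 fits with 1 mouse left out (adjusted P up to 0.092). Col4a3 was at 69.2, 62.9, 58.2 and 53.9 CPM in Model 1 to 4 and 102, 88.5, 90.6 and 141 CPM in YHY 1 to 4. The groups did not overlap (log2 fold change 0.79, standard error 0.18, adjusted P = 0.0098), nor did those of Col4a5 (log2 fold change 0.72, standard error 0.16, adjusted P = 0.00993), whose call was lost with libraries scaled by size alone. Lama5, a laminin chain of the same membrane, was at 127, 197, 155 and 188 CPM in Model 1 to 4 and 242, 295, 261 and 227 CPM in YHY 1 to 4. Its YHY mice were all higher (log2 fold change 0.62, standard error 0.16, adjusted P = 0.0188), and the call was lost without Model 3 (adjusted P = 0.0686). With libraries scaled by size alone 2 of the list were higher, and with the correction for GC content and length 4 were. Fn1, at 32.6, 55.8, 59.0 and 24.2 CPM in Model 1 to 4 and 87.3, 134, 38.2 and 18.3 CPM in YHY 1 to 4, overlapped between the groups, and YHY 1 and YHY 2 were highest (adjusted P = 0.339). In the extracellular matrix and TGF-beta list 2 were higher without Model 3, 3 without Model 4 and 12 without YHY 4, and 1 was lower without YHY 1 or YHY 2.

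Some immunoglobulin genes rose. Of 13 markers of B and plasma cells tested, 6 rose (46.2% against 5.63% of all genes tested) and 0 fell. Their median log2 fold change was 2.63 (1.41 without YHY 1 and 1.08 without YHY 3), and their reads may be split between near-identical gene segments. DESeq2 called 6 higher and 0 lower, and an unadjusted P under 0.05 was met by 7 on the higher side and 0 on the lower, and under the replicate block edgeR called 2 higher. Without Model 1, Model 2 or Model 3 it called 3 higher, and without YHY 3 it called 4. Their summed level was 23.8, 22.0, 35.3 and 40.7 CPM in Model 1 to 4 and 287, 54.6, 291 and 23.1 CPM in YHY 1 to 4. YHY 1 and YHY 3 were far above the others, YHY 2 was moderately high, and YHY 4 lay within the Model range. The most abundant gene per length was Igkc, the kappa light chain, at 3.70, 3.29, 7.26 and 9.15 CPM in Model 1 to 4 and 104, 13.5, 95.4 and 3.95 CPM in YHY 1 to 4. YHY 4 lay within the Model range (log2 fold change 3.22, standard error 0.77, adjusted P = 0.0136), and the call was lost under the replicate block. Ighg1 came mainly from YHY 1, at 0.129, 0.286, 0.548 and 0.299 CPM in Model 1 to 4 and 58.8, 5.09, 3.65 and 0.697 CPM in YHY 1 to 4, and its log2 fold change of 5.79 was 3.32 without that mouse. Of 7 red blood cell genes 2 rose (28.6% against 5.63% of all genes tested) and 0 fell. Before adjustment 4 were higher and 0 lower at a P under 0.05, and the DESeq2 calls were 3 higher and 0 lower. Alas2, the first enzyme of haem synthesis in these cells, rose (log2 fold change 1.71, standard error 0.48, adjusted P = 0.0274), a call lost without Model 1, Model 2, Model 3, Model 4 or YHY 3 (adjusted P up to 0.0786). The summed level of these genes, of which Hba-a1 was the most abundant per length, was 509, 467, 328 and 304 CPM in Model 1 to 4 and 520.0, 342, 840.1 and 1079 CPM in YHY 1 to 4. YHY 3 and YHY 4 were highest, and the part of blood in the other results was not tested. In the red blood cell list 0 were higher without Model 1, Model 2, Model 3, Model 4 or YHY 3 and 1 without YHY 4, or with libraries scaled by size alone.

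**Figure D5:**
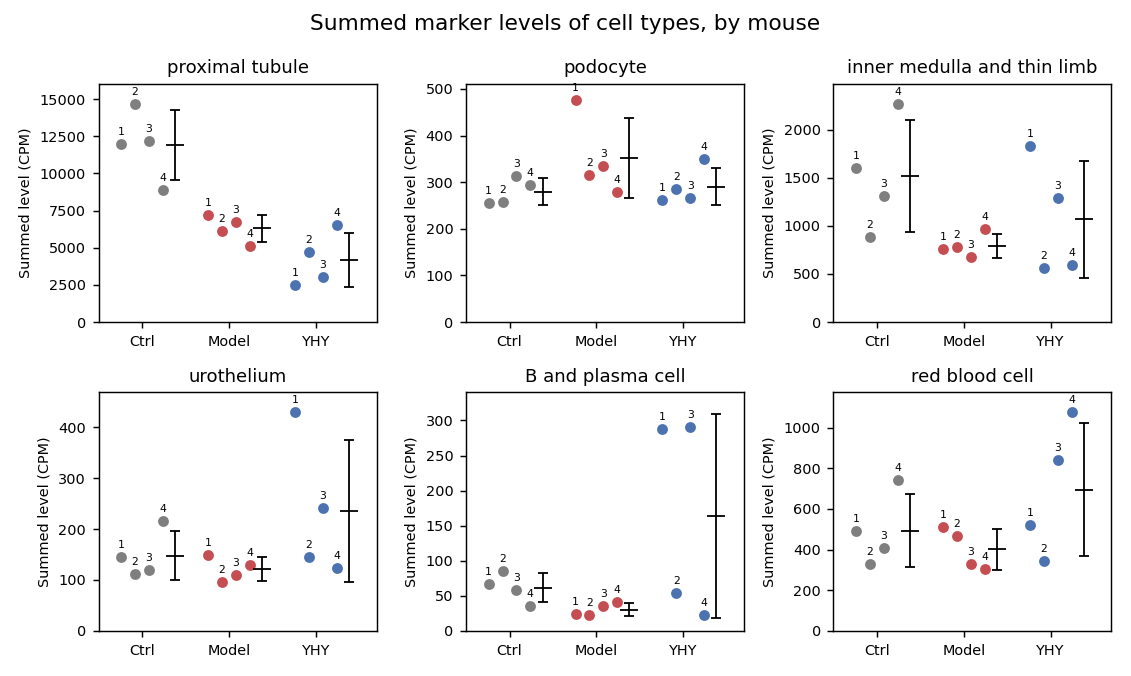
Summed level in CPM (vertical axes) of the markers of 6 cell types in each mouse, with replicate numbers and the mean with SD (n = 4). Among the 8 db/db mice, YHY 1 and YHY 3 are lowest in proximal tubule markers and highest in those of the inner medulla, urothelium and B and plasma cells, and grey points are the Ctrl mice.

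Summed markers of the urothelium and of the inner medulla were highest in YHY 1 and YHY 3 among the 8 db/db mice. Of 9 genes tested in each list, 1 and 2 rose (11.1% and 22.2% against 5.63% of all genes tested) and 0 fell. The medians were 1.51 (2.44 without Model 1 and 0.41 without YHY 1) and 0.96. For the urothelium, at an unadjusted P under 0.05 5 were higher and 0 lower, and DESeq2 called 2 higher and 0 lower. For the inner medulla and thin limb, at an unadjusted P under 0.05 5 were higher and 1 lower, and DESeq2 called 4 higher and 1 lower. Psca, a surface protein of the urothelium and its most abundant marker per length, was at 7.85, 2.67, 2.01 and 4.104 CPM in Model 1 to 4 and 142, 7.30, 31.7 and 2.40 CPM in YHY 1 to 4. YHY 1 and YHY 3 were highest, and YHY 2 and YHY 4 lay within the Model range. Its log2 fold change of 3.45 was 1.72 without YHY 1, and the call was lost without Model 1, Model 2, Model 3, Model 4 or YHY 1 (adjusted P up to 0.181). Aldh1a3, which makes retinoic acid, was at 0.451, 0.762, 0.274 and 0.342 CPM in Model 1 to 4 and 37.5, 0.166, 1.117 and 0.852 CPM in YHY 1 to 4. YHY 1 stood far above the rest, and the log2 fold change of 4.44 was 0.68 without it. The call was lost without Model 1, Model 2, Model 3, Model 4 or YHY 1 (adjusted P up to 0.699) and under the replicate block. Cryab, a small heat shock protein that is abundant in the medulla, was at 95.0, 56.0, 39.4 and 68.8 CPM in Model 1 to 4 and 518, 93.7, 212 and 104 CPM in YHY 1 to 4. YHY 2 lay within the Model range, and the log2 fold change of 1.84 was 1.08 without YHY 1, with the call lost without Model 3 or YHY 1 (adjusted P up to 0.0641). Hspb1, another small heat shock protein, was at 17.5, 12.2, 7.49 and 10.0 CPM in Model 1 to 4 and 54.6, 16.3, 31.5 and 15.8 CPM in YHY 1 to 4. YHY 1 and YHY 3 were highest again, and the log2 fold change of 1.32 was 0.84 without YHY 1, with the call lost without Model 2, Model 3, Model 4, YHY 1 or YHY 3 (adjusted P up to 0.12) and with libraries scaled by size alone. Aqp1, a water channel and the most abundant marker of the inner medulla and thin limb list per length, was at 275, 348, 394 and 513 CPM in Model 1 to 4 and 303, 115, 251 and 168 CPM in YHY 1 to 4. YHY 2, YHY 3 and YHY 4 were below all Model mice and YHY 1 was within their range (log2 fold change -0.87, adjusted P = 0.0546, under 0.05 by DESeq2 and without YHY 1). In the urothelium list 0 were higher without Model 1, Model 2, Model 3 or YHY 1 and 3 without YHY 4. In the inner medulla and thin limb list 1 was higher without Model 1, Model 2 or Model 4, or under the replicate block, 0 without Model 3 or YHY 1 and 5 without YHY 4, and 1 was lower without YHY 1.

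Of the other cell types, 0 of 14 macrophage and monocyte markers, 0 of 4 neutrophil markers, 0 of 8 T and NK cell markers and 0 of 3 adrenal markers passed the edgeR test. For macrophages and monocytes, at an unadjusted P under 0.05 2 were higher and 0 lower, and DESeq2 called 0 higher and 0 lower. For neutrophils, at an unadjusted P under 0.05 0 were higher and 0 lower, and DESeq2 called 0 higher and 0 lower. For T and NK cells, at an unadjusted P under 0.05 2 were higher and 0 lower, and DESeq2 called 1 higher and 0 lower. For these cells edgeR called 1 higher with mitochondrial genes removed or with the correction for GC content and length. For the adrenal list, at an unadjusted P under 0.05 0 were higher and 1 lower, and DESeq2 called 0 higher and 0 lower. Lyz2, the most abundant macrophage marker per length, was at 121, 114, 159 and 185 CPM in Model 1 to 4 and 232, 362, 115 and 118 CPM in YHY 1 to 4. YHY 1 and YHY 2 were above the Model mice and YHY 3 and YHY 4 within their range. Of 6 adipocyte genes tested 2 rose and 1 fell (33.3% and 16.7% against 5.63% and 7.62% of all genes tested). Plin4, a lipid droplet protein, was at 7.89, 15.0, 16.4 and 17.4 CPM in Model 1 to 4 and 47.2, 27.0, 45.0 and 27.9 CPM in YHY 1 to 4. It rose in all YHY mice above the Model range (log2 fold change 1.38, standard error 0.24, adjusted P = 0.00262). Per length, S100a8 was the most abundant neutrophil marker, Trac that of T and NK cells and Hsd3b1 that of the adrenal list, with adjusted P values of 0.947, 0.825 and 0.963. Pnpla2, a lipase and the most abundant adipocyte gene per length, rose (log2 fold change 0.57, standard error 0.14, adjusted P = 0.0159), a call lost without Model 3 (adjusted P = 0.0558) and with libraries scaled by size alone. In the adipocyte list 1 was higher without Model 3, or with libraries scaled by size alone. In the macrophage and monocyte list 2 were higher without YHY 4 and 1 with the correction for GC content and length.

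Some interferon-stimulated genes rose. Of 26 tested, 5 rose (19.2% against 5.63% over all genes tested) and 0 fell, with a median of 0.63. By DESeq2 7 were higher and 0 lower, and before adjustment edgeR had 8 higher and 0 lower at a P under 0.05. The summed level of the list was 207, 240.2, 215 and 235 CPM in Model 1 to 4 and 376, 305, 375 and 203 CPM in YHY 1 to 4, with YHY 1 to 3 above all Model mice and YHY 4 below them. Irf9, which carries the interferon signal to the nucleus, was at 10.7, 13.1, 11.4 and 13.6 CPM in Model 1 to 4 and 21.1, 16.4, 29.0 and 19.2 CPM in YHY 1 to 4. The groups did not overlap (log2 fold change 0.82, standard error 0.18, adjusted P = 0.00853), nor did those of Xaf1 (log2 fold change 1.01, standard error 0.23, adjusted P = 0.0117). Mx1 and Mx2, which restrict viruses, were low genes, between 0.744 and 1.71 CPM and between 1.56 and 5.25 CPM in YHY. The call of Mx1 was lost without Model 1, Model 2, Model 3, Model 4, YHY 1, YHY 2 or YHY 3 (adjusted P up to 0.132) and with libraries scaled by size alone and under the replicate block, and that of Mx2 was lost without Model 4 or YHY 2 (adjusted P up to 0.0675). In the interferon-stimulated list 3 were higher without Model 1 or YHY 1, 2 without Model 4 and 9 without YHY 4. Of 29 cytokine and chemokine genes 1 fell (3.45% against 7.62% over all genes tested) and 0 rose, Ccl6 (log2 fold change -1.38, standard error 0.32, adjusted P = 0.0119), and at an unadjusted P under 0.05 2 were higher and 1 lower, and DESeq2 called 1 higher and 1 lower. Of 7 genes of MHC class II 1 fell (14.3% against 7.62% of all genes tested), H2-DMa (log2 fold change -0.73, standard error 0.22, adjusted P = 0.0349). Its call was lost without Model 1, Model 2, Model 3, Model 4, YHY 1 or YHY 3 (adjusted P up to 0.0976) and with libraries scaled by size alone and with the correction for GC content and length. Of 14 complement genes 0 passed the edgeR test. At an unadjusted P under 0.05 0 were higher and 0 lower, and DESeq2 called 0 higher and 0 lower. Il1b, Tnf and Il18 had adjusted P values of 0.784, 0.311 and 0.458. Of 19 tubular injury genes 2 rose (10.5%) and 0 fell, Lcn2 and Cryab, whose dependence on single mice is given with each, and at an unadjusted P under 0.05 3 were higher and 0 lower, and DESeq2 called 2 higher and 0 lower. In the tubular injury list 1 was higher without Model 1, Model 2, Model 4 or YHY 3, or with libraries scaled by size alone, 0 without Model 3 or YHY 1 and 4 without YHY 4. In the inflammatory cytokines and chemokines list 2 were higher without YHY 4 and 1 with mitochondrial genes removed or with the correction for GC content and length.

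Of 27 genes of Nrf2 and glutathione metabolism, 1 rose and 4 fell, or 3.70% and 14.8% against 5.63% and 7.62% over all genes tested. Nfe2l2, which encodes Nrf2, rose (log2 fold change 0.72, standard error 0.17, adjusted P = 0.0136), a call lost with libraries scaled by size alone. Of 25 targets 0 rose and 4 fell. Gss, which completes glutathione, was at 292, 262, 326 and 309 CPM in Model 1 to 4 and 136, 154, 116 and 159.6 CPM in YHY 1 to 4. Each of the YHY mice was lower than all Model mice (log2 fold change -1.07, standard error 0.18, adjusted P = 0.00193), and Gsr, which regenerates glutathione, and Srxn1 fell as well (log2 fold change -1.08, standard error 0.21, adjusted P = 0.00495 and log2 fold change -0.98, standard error 0.15, adjusted P = 0.00114). In the Nrf2 and glutathione list 2 were higher by DESeq2 or with the correction for GC content and length and 0 with libraries scaled by size alone, and 7 were lower without YHY 4, or by DESeq2. Of 24 genes of the unfolded protein response 1 rose (4.17%) and 0 fell, Xbp1 (log2 fold change 0.74, standard error 0.20, adjusted P = 0.0246), a call lost without Model 1, Model 3, Model 4 or YHY 1 (adjusted P up to 0.0892) and with libraries scaled by size alone. DESeq2 called 2 higher and 0 lower. An unadjusted P under 0.05 was met by 3 of the 24 on the higher side and 2 on the lower. Over all 17431 genes tested, that limit was met by 2430 and 2559. Of 21 immediate early genes 1 rose and 2 fell (4.76% and 9.52%). Myc, a growth factor-responsive transcription factor, was at 4.60, 2.81, 1.92 and 2.82 CPM in Model 1 to 4 and 9.88, 5.25, 8.90 and 11.8 CPM in YHY 1 to 4. Every YHY mouse was above every Model mouse (log2 fold change 1.55, standard error 0.35, adjusted P = 0.00951). Jund fell (log2 fold change -0.79, standard error 0.17, adjusted P = 0.00741), a call lost with libraries scaled by size alone and with the correction for GC content and length, and Nr4a3 fell as well (log2 fold change -2.86, standard error 0.74, adjusted P = 0.0198) but was at most 0.731 CPM in any of the 8 mice, and its call was lost without Model 3 (adjusted P = 0.0572). Of 15 genes that respond to glucocorticoids 3 rose and 1 fell (20.0% and 6.67%), with a median of 0.52, and Sgk1, a kinase of sodium transport, was at 91.6, 78.6, 83.9 and 89.8 CPM in Model 1 to 4 and 165, 168, 75.1 and 312 CPM in YHY 1 to 4. YHY 3 lay below the Model range, and the log2 fold change of 1.06 was 0.66 without YHY 4. The call was lost without Model 1, Model 2, Model 3, Model 4, YHY 1, YHY 2 or YHY 4 (adjusted P up to 0.129) and with libraries scaled by size alone. In the glucocorticoid-responsive list 0 were higher without Model 1, Model 2, Model 3 or Model 4, 1 without YHY 1, YHY 2 or YHY 3, or with libraries scaled by size alone and 5 by DESeq2, and 0 were lower without Model 3, YHY 1 or YHY 3. In the unfolded protein response list 0 were higher without Model 1, Model 3, Model 4 or YHY 1, or with libraries scaled by size alone and 2 without Model 2, and 1 was lower without Model 4 or YHY 4. In the immediate early list 1 was lower without Model 3, or with libraries scaled by size alone or with the correction for GC content and length.

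The study itself singled out genes of autophagy, mTOR signalling and m6A, so that they are not an independent choice here. Of 48 autophagy genes 2 rose and 6 fell, or 4.17% and 12.5% against 5.63% and 7.62% over all genes tested, and with libraries scaled by size alone 0 passed in either direction. Atg5, which joins the conjugation complex of the autophagosome, was at 22.7, 13.9, 17.1 and 15.6 CPM in Model 1 to 4 and 10.6, 7.08, 12.4 and 11.0 CPM in YHY 1 to 4. The YHY mice were all below the Model mice (log2 fold change -0.75, standard error 0.18, adjusted P = 0.0149), a call lost without Model 1 (adjusted P = 0.0573) and with libraries scaled by size alone. Rab7, which directs vesicles to lysosomes, fell too (log2 fold change -0.57, standard error 0.14, adjusted P = 0.0162), a call lost with libraries scaled by size alone. Becn1, Map1lc3b, Atg7 and Sqstm1 did not pass, with adjusted P values of 0.137, 0.128, 0.145 and 0.418. In the autophagy machinery list 1 was higher without Model 1, Model 4 or YHY 2, or under the replicate block, 0 without Model 2 or Model 3, or with the correction for GC content and length, 5 by DESeq2 and 4 with upper-quartile scaling or with mitochondrial genes removed, and 2 were lower without Model 1 or YHY 2 and 3 without Model 3, Model 4 or YHY 1. Of 45 genes of mTOR signalling 3 rose and 10 fell (6.67% and 22.2%). Mtor and Ulk1 did not pass (0.809 and 0.58 as adjusted P), whereas Rictor, the defining part of mTOR complex 2, was at 16.8, 18.5, 15.2 and 15.7 CPM in Model 1 to 4 and 36.0, 38.6, 19.7 and 41.7 CPM in YHY 1 to 4. All YHY mice were higher (log2 fold change 1.04, standard error 0.20, adjusted P = 0.00392). Lamtor1, an anchor of mTOR complex 1 on the lysosome, was at 53.1, 43.9, 51.0 and 48.6 CPM in Model 1 to 4 and 25.3, 16.3, 26.3 and 23.9 CPM in YHY 1 to 4, and it fell (log2 fold change -1.10, standard error 0.16, adjusted P = 0.000691), as did Akt1s1, an inhibitor of that complex (log2 fold change -0.79, standard error 0.12, adjusted P = 0.000979). In the mTOR signalling list 1 was higher without Model 3, Model 4 or YHY 2, and 6 were lower without Model 3 and 3 with libraries scaled by size alone.

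Among 20 genes of m6A, a methyl mark on mRNA, 2 readers rose and 1 eraser fell (10.0% and 5.0% against 5.63% and 7.62% of all genes tested). The median was 0.26 (0.10 with the correction for GC content and length). In this list 0 passed under the replicate block or with libraries scaled by size alone, and 0 were higher with the correction for GC content and length. Alkbh5, the eraser, was at 50.6, 46.2, 50.0 and 43.0 CPM in Model 1 to 4 and 34.6, 36.0, 35.4 and 37.2 CPM in YHY 1 to 4. There was no overlap between the groups (log2 fold change -0.41, standard error 0.12, adjusted P = 0.0323), and the call was lost without Model 1, Model 2, Model 3, YHY 1, YHY 2 or YHY 3 (adjusted P up to 0.101) and with libraries scaled by size alone and under the replicate block. Mettl3, the catalytic writer, was at 3.83, 3.62, 3.56 and 3.16 CPM in Model 1 to 4 and 6.72, 3.10, 6.55 and 10.0 CPM in YHY 1 to 4. YHY 2 was below all Model mice and the other YHY mice were above them (adjusted P = 0.0519, and under 0.05 by DESeq2, with upper-quartile scaling, with mitochondrial genes removed and without YHY 2). Mettl14, Wtap and Fto did not pass (0.754, 0.144 and 0.824 as adjusted P). In the m6A machinery list 1 was higher without Model 1 or Model 4 and 0 without Model 2, Model 3 or YHY 4, and 0 were lower without Model 1, Model 2, Model 3, YHY 1, YHY 2 or YHY 3. Cdkn2a had too few counts for a test. Lepr, the gene mutated in these mice, was at 8.27, 6.62, 2.79 and 7.78 CPM in Model 1 to 4 and 16.6, 7.13, 11.9 and 4.34 CPM in YHY 1 to 4. The groups overlapped (adjusted P = 0.298). Actb, a gene often used to scale measurements of single genes, was at 925, 827, 897 and 847 CPM in Model 1 to 4 and 554, 413, 426 and 504 CPM in YHY 1 to 4. Each of the YHY mice was below all Model mice, and it fell by 0.88 on the log2 scale (standard error 0.16, adjusted P = 0.0027).

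Some ribosomal protein genes fell and some nuclear-retained RNAs rose. Of 38 genes of cytosolic ribosomal proteins 11 fell (28.9% against 7.62% of all genes tested) and 0 rose, with a median log2 fold change of -0.36. Before adjustment 1 were higher and 21 lower at a P under 0.05, and the DESeq2 calls were 1 higher and 17 lower. These genes have many processed copies between which reads could be split. Without YHY 2 or Model 1 the count was 6, without Model 3 it was 5 and without Model 2 it was 7. With libraries scaled by size alone 3 were lower, and with the correction for GC content and length 7 were lower and 1 higher. Rps19 was at 282, 356, 382 and 358 CPM in Model 1 to 4 and 174, 161, 156 and 213 CPM in YHY 1 to 4. The groups did not overlap (log2 fold change -0.97, standard error 0.16, adjusted P = 0.00185). Of 6 long non-coding RNAs that stay in the nucleus 3 rose (50.0% against 5.63% of all genes tested) and 0 fell. In this list 1 was higher with the correction for GC content and length and 1 without Model 3 or Model 4. By DESeq2 3 were higher and 0 lower, and before adjustment edgeR had 3 higher and 0 lower at a P under 0.05. Malat1 was at 179.8, 406, 264 and 244 CPM in Model 1 to 4 and 496, 518, 464 and 611 CPM in YHY 1 to 4. In YHY, all mice were higher (log2 fold change 0.93, standard error 0.22, adjusted P = 0.0127), and both groups lay above the Ctrl range of 104 to 151 CPM. Neat1, the scaffold of paraspeckles, rose as well (log2 fold change 0.76, standard error 0.19, adjusted P = 0.0162), a call lost without Model 3 or Model 4 (adjusted P up to 0.0534) and with the correction for GC content and length.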

How the data were processed

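Kidney mRNA was sequenced in 12 mice, 1 library per mouse, and members and lists were chosen with earlier results of these data known. The authors deposited a table of raw read counts per gene for all mice, with a gene length in bases for each gene as another column. The authors also deposited a comparison of YHY with Model that holds group means of a normalized signal, with log2 fold changes and P-values, and tables of pathways. The means were matched to the counts and equal those of YHY 1 to 3 and Model 2 to 4 to a relative difference of at most 1.63e-09, so that 1 mouse per group is absent from them. The authors' 12 columns per mouse, fold changes, P-values and pathways were not used. The submitters' notes name FastQC 0.11.9, Trimmomatic 0.39, HISAT2 2.2.1, SAMtools 1.12, featureCounts 2.0.1 of Subread, DESeq2 1.34.0, R 4.1.2 and the build GRCm39, without the annotation release or the strand setting of the counting.

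Counts were filtered with filterByExpr, scaled by TMM and fitted for the 3 groups in edgeR 4.0.16 (limma 3.58.1, data.table version 1.17.8, R 4.3.3) with the quasi-likelihood test, and P was adjusted by Benjamini-Hochberg over all genes tested. Totals were 24415658 to 29784346 counts in Model and YHY, and shares have Wilson 95% intervals. Genes were named if they were among the 10 largest rises or falls described in the text, among the up to 6 smallest P of a list at an adjusted P under 0.05, the most abundant of a cell type list, measured by other means in the study, or Lepr, and genes outside this rule are marked as chosen after their values were seen. Some genes that meet this rule are not reported here. Lists are described by counts and medians beside those of all genes. Alternatives were DESeq2 1.42.0, other scalings and filters, mitochondrial genes removed, only the db/db mice, the mice of the authors' means, leaving out each mouse, a block for replicate number, and a GC and length correction, chosen after seeing the data. GC content came from GENCODE M21 (GRCm38) and promoters from RefSeq (GRCm38.p6), matched by gene. The steps were tested on simulated data.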

Additional observations from a re-analysis of the deposited data

Results flagged for a closer look

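In 24 of 438 groups of 4 mice, 1 mouse lay far from the other 3, and chance flags about 1 in 20 groups. In YHY 1 these were Aldh1a3 (37.5 CPM), Fto (23.96 CPM), Ighg1 (58.8 CPM) and Ighg2b (51.6 CPM) above the other YHY mice and Ugt1a10 (0.305 CPM) below them. In YHY 2, Des (24.6 CPM), Mvk (5.64 CPM), Mx1 (1.71 CPM), Slc4a9 (226 CPM), the summed markers of mesangium, pericytes and smooth muscle (475 CPM) and the mitochondrial share (64.6%) were above the others. In YHY 3, Igha (138 CPM) and Trac (3.13 CPM) were above the others, and Mvd (10.1 CPM) and the summed immediate early genes (246 CPM) were below them. In YHY 4, Gsr (48.3 CPM), Plin5 (8.80 CPM) and Slc2a2 (102 CPM) were above the others. In Model 2, Gpx4 (649 CPM), Oxct1 (352 CPM) and the summed genes of fatty acid synthesis (588 CPM) were below the other Model mice. In Model 4, Hsd3b1 (20.7 CPM) and Stx17 (17.0 CPM) were above the other Model mice and Timp3 (36.7 CPM) was below them.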

How the results depend on the processing

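No gene past the limit in the reported fit was called in the opposite direction in an alternative fit. Named genes and lists were followed under DESeq2, upper-quartile scaling, library size alone, mitochondrial genes removed, the replicate block and the GC and length correction. They were not followed in the fit of only the db/db mice, which shared 1362 of the 2311 calls, or under the remaining alternatives. Of the values of named genes under the settings followed, 933 kept direction and side of the limit, 62 lost the call, 8 gained one and 5 changed sign. With 1 mouse left out, 1127 kept both, 192 lost the call, 6 gained one and 19 changed sign. All genes that changed sign had missed the limit, and the cause was not tested. With libraries scaled by size alone, 491 genes passed on the higher side and 686 on the lower, and the log2 fold change of S100a8 was -0.021 and of Hsd3b1 -0.00591. In the 8 db/db mice alone 692 were lower. Under the replicate block S100a8 was at -0.10, 793 genes were higher and 1127 lower, and 1841 of 2311 calls were shared. The correlation across genes between Model and YHY mice of the same number, after each group's mean was taken off, lay between -0.173 and 0.0385, and that between mice of different numbers between -0.121 and 0.147. With the block and the correction for GC content and length, chosen after seeing the data, 611 were higher. With that correction alone Synpo was at -0.021 and Mettl14 at -0.092. With a log2 limit of 1.2 in place of a fold of 1.2, 407 genes were higher and 369 lower. With 1 mouse left out, genes higher ran from 419 to 1045 and genes lower from 727 to 1678. Log2 fold changes then ran from -0.017 to 0.55 for Per1, -0.57 to 0.40 for S100a8, -1.81 to 0.26 for Trac, -0.10 to 0.43 for Hsd3b1, -0.062 to 0.25 for Synpo, -0.041 to 0.056 for Des, -0.024 to 0.18 for Mtor, -0.066 to 0.29 for Ulk1, -0.46 to 0.58 for Il1b and -0.0056 to 0.13 for Acta2. Of list medians, 2 moved past the spread between mice under other settings, those of the core clock and m6A lists, and 11 with 1 mouse left out. The list of mitochondrial mRNAs gave no value with mitochondrial genes removed.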
